A study of Homo sapiens with 96 samples.

Results

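The genes described here are the enzymes of glycolysis and genes of the cellular response to low oxygen, followed through a day of circadian time in U2-OS, a line grown from a human bone tumour (osteosarcoma), here with luciferase placed behind the promoter of Per2. They were chosen from a list of 39 symbols, of which 38 occur in all 8 tables of the study, out of 19438 genes; the symbol PKM2 does not, and PKM stands for both splice forms. By role they comprise 17 glycolytic enzymes, 6 genes of sugar and lactate transport and of the switches that steer glycolytic flux, the oxygen-regulated factor HIF1A itself, and 14 genes that HIF is known to activate. The 96 libraries are total RNA and ribosome footprints (the RNA fragments that translating ribosomes protect), each from cells with Bmal1 knocked down and from wild-type cells, at 12 circadian times (CT00 to CT22, every 2 h) with 2 replicates. Bmal1 knockdown plates were seeded with 560000 cells and transfected with 120 pmol of a mixture of siRNAs against Bmal1, using Lipofectamine RNAiMAX, in medium without antibiotics. Wild-type plates were seeded with 4.02 times as many cells and received neither siRNA nor a control siRNA. All plates were synchronized with 0.1 μM dexamethasone, sealed with vacuum grease, first collected 24.5 h later, and treated with 100 μg/mL cycloheximide before lysis. Seeding number and transfection therefore differ together with Bmal1, and their parts in any difference between the treatments cannot be told apart.

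Glycolysis splits glucose to pyruvate in a chain of enzymes, and lactate dehydrogenase turns pyruvate into lactate when respiration is limited. In normal oxygen, prolyl hydroxylases of the EGLN family mark the HIF alpha subunits for destruction; when oxygen falls, HIF1A is kept, pairs with ARNT and activates genes for glucose uptake, most glycolytic enzymes, blood vessel growth, mitophagy and the hydroxylases themselves. The clock factor BMAL1, whose gene is named ARNTL in the files, and the HIF subunits belong to the same family of paired DNA-binding proteins. HIF binds sites with the core ACGTG or GCGTG, and BMAL1 with its partner CLOCK binds the E-box CACGTG, which holds an ACGTG on each strand.

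Promoter sequence is shown for the 3 genes whose change over the day differed most between the treatments in total RNA among those past the threshold given below. The 250 bases before the start of each gene are from RefSeq (GRCh38.p14), 5′ to 3′ on the strand of the gene, which is the minus strand for all of them. Capitals mark a core (ACGTG or GCGTG) on either strand. ALDOC is at chr17:28576896-28577145, EGLN3 at chr14:33951075-33951324 and P4HA1 at chr10:73096867-73097116.
ALDOC: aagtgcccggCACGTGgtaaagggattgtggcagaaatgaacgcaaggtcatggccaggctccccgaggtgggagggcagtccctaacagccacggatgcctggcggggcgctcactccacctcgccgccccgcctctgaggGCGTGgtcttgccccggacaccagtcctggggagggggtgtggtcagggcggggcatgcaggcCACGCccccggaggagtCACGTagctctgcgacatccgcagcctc
EGLN3: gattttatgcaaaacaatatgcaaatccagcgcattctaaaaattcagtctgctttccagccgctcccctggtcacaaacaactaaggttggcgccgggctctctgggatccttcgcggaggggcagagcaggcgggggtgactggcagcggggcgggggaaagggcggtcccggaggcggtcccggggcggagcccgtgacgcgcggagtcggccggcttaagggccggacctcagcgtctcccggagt
P4HA1: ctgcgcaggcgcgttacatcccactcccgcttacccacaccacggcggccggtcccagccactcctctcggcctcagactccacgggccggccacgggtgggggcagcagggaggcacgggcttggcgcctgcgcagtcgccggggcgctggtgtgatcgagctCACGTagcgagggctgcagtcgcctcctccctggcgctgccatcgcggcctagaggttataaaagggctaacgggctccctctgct
The ALDOC stretch holds 5 cores, of which an E-box counts as 2, the P4HA1 stretch holds 1, and none of these letters occurs in the EGLN3 stretch. Promoters of 34 of the 38 genes were matched by symbol (not SLC2A3, VEGFA, BNIP3L and NDRG1). Windows of 300 bases were searched, 250 before and 50 after the start. A core on either strand lay in 24 of the 34 (70.6%), against 17012 of all 35116 promoters of the reference (48.4%). Among the matched genes these were 12 of 17 glycolytic enzymes and 8 of 11 HIF targets. An E-box lay in 5 of the 34 (14.7%), against 7.26% of all promoters. A match is a run of letters and not a bound site. The reference promoters were not limited to genes tested here and not matched for base content. Whether the gaps are particular to these genes was not tested.

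Total RNA libraries held 13589361 to 20066462 reads, apart from Bmal1 knockdown replicate 2 at CT14 and CT18, which held 2657049 and 2564263 reads; footprint libraries held 2497246 to 5822458 reads. Levels are CPM, read counts relative to each library's total after scaling between libraries, and differences are log2 ratios with standard errors (SE). Of the targeted gene, ARNTL, knockdown total RNA held 3.40, 4.74 and 6.58 CPM (lowest, median and highest library) and wild-type total RNA 14.3, 32.7 and 47.9 CPM. Its footprints were at 0, 0.689 and 1.96 CPM in knockdown libraries and 6.50, 19.5 and 28.2 CPM in wild-type libraries, so the treatments did not overlap in either assay. The line's 6 osteosarcoma markers summed to 3638 to 4459 CPM in knockdown and 3057 to 3516 CPM in wild-type total RNA. COL1A2 was near 0 throughout, at most 0.387 CPM in knockdown and 0.273 CPM in wild-type libraries. Medians of VIM, SPARC and CD44 were higher in knockdown than in wild-type libraries. Those of RUNX2 (8.87 against 15.3 CPM) and COL1A1 (155 against 175 CPM) were lower. Summed markers of blood cells were at 9.80 to 17.8 CPM in knockdown and 1.58 to 3.38 CPM in wild-type libraries, almost all of it CD68, with CD3E at 0 in every library. Summed epithelial markers were at 7.64 to 15.5 CPM in knockdown and 7.33 to 23.8 CPM in wild-type libraries and endothelial markers (2 of 3 in the files) at 0.431 to 1.51 CPM in knockdown and 1.75 to 4.14 CPM in wild-type libraries. The part of these shifts in the results was not tested. In bulk libraries, fewer cells expressing a gene and less RNA per cell cannot be told apart.

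The wild-type replicates 1 and 2 differed for these genes before any comparison of treatments. A gap between them does not say which of them was shifted. In wild-type total RNA, replicate 1 was higher than replicate 2 at all 12 times for 19 of the 37 genes tested (51.4%), against 8.86% of all genes tested. In knockdown total RNA this held for 0 of the 37, against 0.152% of all genes. Averaged over the day, wild-type replicate 1 was higher by at least 0.25 on the log2 scale for 16 genes (43.2%), against 6.79% of all genes, and knockdown replicate 1 for 0, against 1.74%. The widest gaps in wild-type total RNA were 0.91 for ALDOC, 0.68 for PDK1, 0.59 for P4HA1, 0.51 for HK2 and 0.46 for KDM3A. The gap was -0.14 for PKM and 0.042 for HIF1A. In wild-type footprints, 13 of 35 genes (37.1%) were higher in replicate 1 by at least 0.25, against 7.86% of all genes, and in knockdown footprints 1 of 35 (ANKRD37, 0.70), 2.86% against 1.6%. Wild-type footprints were higher in replicate 1 at all 12 times for 20% of the 35 genes, against 2.02% of all genes. For the knockdown effect in total RNA, leaving out replicate 1 of both treatments lost 7 calls and added 4, and leaving out replicate 2 lost 0 and added 7.

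**Figure D1:**
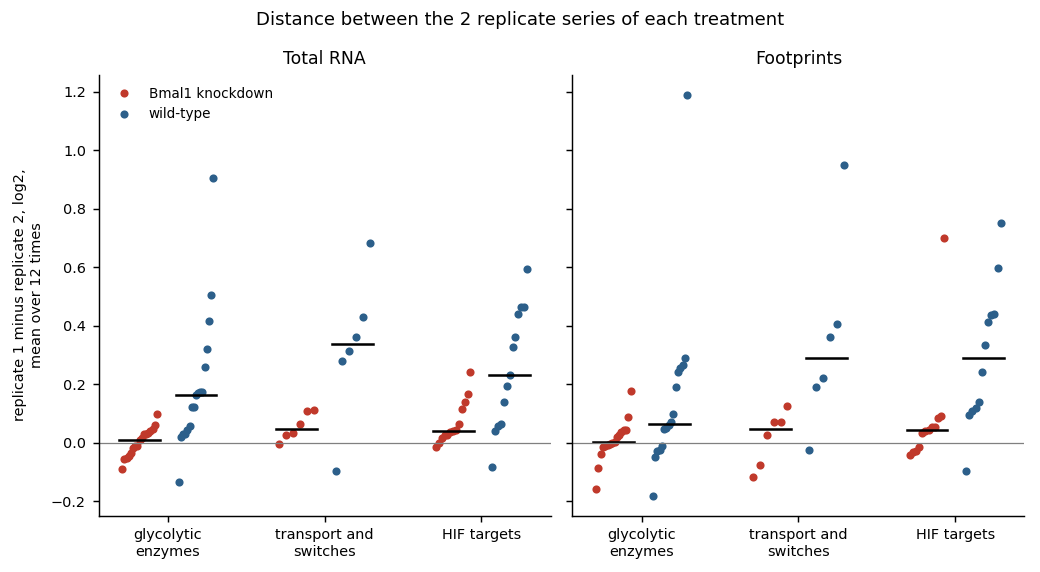
Replicate 1 minus replicate 2 for each gene (log2, mean over 12 times; vertical axis), knockdown left of wild-type, for total RNA and footprints; points are genes and bars are medians. In total RNA, knockdown points lie between -0.092 and 0.24, while wild-type points reach 0.91 (ALDOC). In footprints, knockdown points reach 0.70 (ANKRD37) and wild-type points 1.19.

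The first comparison asks how these genes differed between knockdown and wild-type plates, averaged over the 12 times (24 libraries against 24). Seeding number and transfection differed together with Bmal1 in this comparison. The genes grouped here as HIF targets were lower in knockdown cells in both assays, while glycolytic enzymes went both ways. This does not hold for all genes that HIF can activate, some of which are in the other groups. Of the 6 transport and switch genes, 2 rose and 1 fell in total RNA, and 2 rose and none fell in footprints. In the further list of HIF pathway genes given below, 12 rose and 11 fell in each assay. In total RNA, 12 of the 13 HIF targets tested fell and none rose, with a median of -0.36 and a range of -0.97 to -0.10 on the log2 scale. Of the 17 enzymes, 6 rose and 4 fell, with a median of -0.00083. In total, 26 of the 37 genes tested (8 higher, 18 lower) had an adjusted p under 0.05; among all genes 81.6% did, 41.7% higher and 40% lower, with a median of 0.0081. The share of these genes called is thus below that of all genes, and the sizes and directions carry the description. In footprints, 11 of 12 HIF targets tested fell and none rose (median -0.37), 5 of 16 enzymes rose and 3 fell, and 22 of 35 genes were called (7 higher, 15 lower), against 75.4% of all genes (37.8% higher, 37.6% lower). The same 11 HIF targets fell in both assays, among the 12 tested in both. For 9 of 13 in total RNA and 7 of 12 in footprints the difference was below 0 at each of the 12 times. How many of all genes fell in both assays, or kept the same sign at all 12 times, was not counted.

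The sizes differed between the replicates. With replicate 1 of both treatments left out, 11 of 13 HIF targets still fell in total RNA, with a median of -0.25, and 5 of 11 in footprints, with a median of -0.16, against 35.8% and 33.1% of all genes lower in the same fits. With replicate 2 of both treatments left out, 12 of 13 fell in total RNA (median -0.55) and 12 of 12 in footprints (median -0.55), against 39.2% and 34.6% of all genes. When the 12 times of each replicate were averaged first, which leaves 2 values against 2, 9 of 13 HIF targets fell in total RNA and 8 of 12 in footprints, against 58.7% and 58.9% of all genes called in either direction. On the authors' own scaling of the footprints 9 of 12 HIF targets fell, 9 of 16 enzymes rose and 1 fell, and the split over all genes was 5229 higher and 3288 lower, in place of 4231 and 4204.

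**Figure D2:**
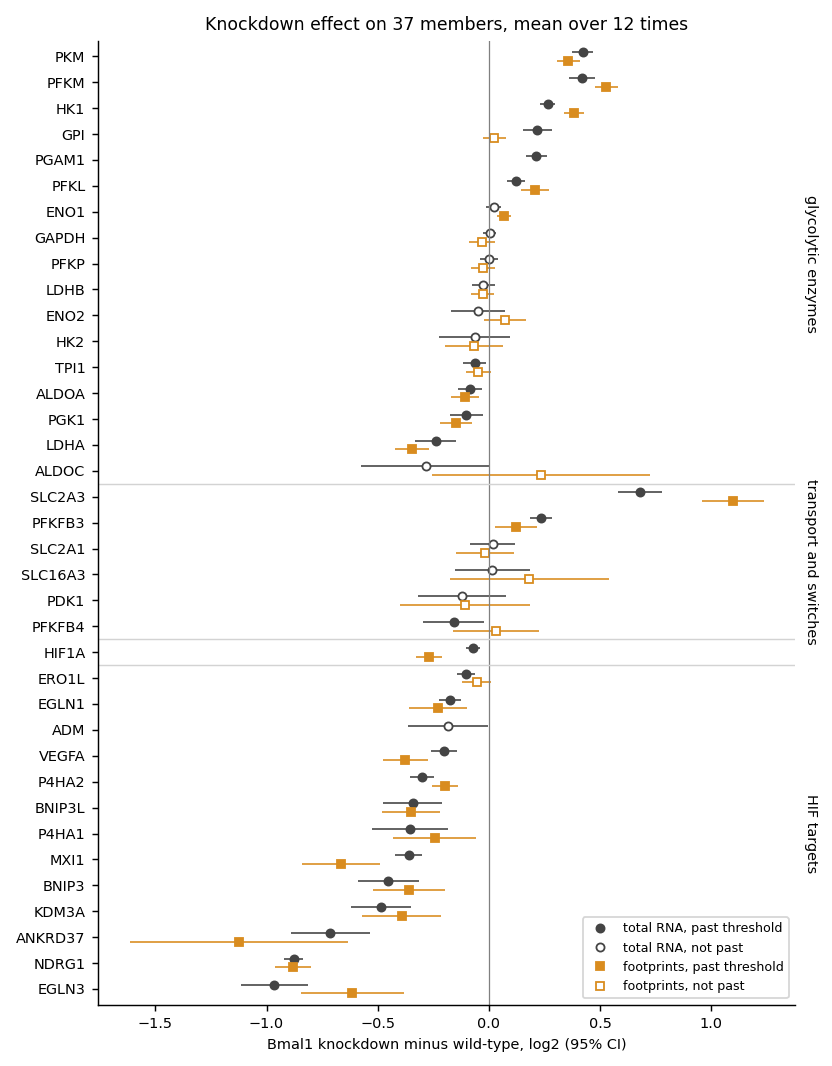
Bmal1 knockdown minus wild-type (log2, mean over 12 times, with 95% intervals; horizontal axis) for 37 genes grouped by role, with total RNA as dark circles and footprints as orange squares; filled symbols have an adjusted p under 0.05. HIF targets lie left of 0 in both assays, and SLC2A3, PFKM, PKM and HK1 lie right of it.

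Among the HIF targets, the prolyl hydroxylase EGLN3 had the largest difference in total RNA. EGLN3 was at 0.774, 2.42 and 3.59 CPM in knockdown total RNA and 3.79, 4.82 and 6.79 CPM in wild-type total RNA (lowest, median and highest of 24 libraries). Every knockdown library lay below every wild-type library, and EGLN3 fell by 0.97 ± 0.077 on the log2 scale (1.95-fold, adjusted p = 4.07e-13). Its footprints were at 1.93, 2.93 and 6.21 CPM in knockdown and 1.38, 5.41 and 8.49 CPM in wild-type libraries, ranges that overlapped, with a difference of -0.61 ± 0.12 (adjusted p = 1.2e-05; -0.47 and 0.053 without replicate 1). The related hydroxylase EGLN1, the main oxygen sensor of most cells, changed less: 80.4, 92.2 and 99.9 CPM in knockdown and 89.9, 103 and 115 CPM in wild-type total RNA, a difference of -0.18 ± 0.025, and -0.23 ± 0.067 in footprints (adjusted p = 1.55e-07 and 0.00254). The treatments overlapped, and the footprint call was lost without replicate 1 (-0.054, adjusted p = 0.514). No overlap between the 24 knockdown and the 24 wild-type libraries was found for 4 of the 37 genes in total RNA (EGLN3, NDRG1, HK1 and PKM), against 20% of all genes (10.1% higher and 9.9% lower in knockdown), and for 4 of 35 in footprints (NDRG1, HK1, PFKM and PKM), against 12% (6.37% higher and 5.64% lower).

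NDRG1, a growth-arrest and stress gene that is a common marker of hypoxia, was the one HIF target tested whose treatments did not overlap in both assays. NDRG1 total RNA was at 61.8, 70.6 and 88.7 CPM in knockdown and 115, 131 and 148 CPM in wild-type libraries, and NDRG1 footprints were at 79.6, 93.6 and 125 CPM in knockdown and 148, 174 and 207 CPM in wild-type libraries. It fell by 0.88 ± 0.022 in total RNA (adjusted p = 1.56e-26) and by 0.88 ± 0.042 in footprints (adjusted p = 9.21e-22), with the same sign at all 12 times. ANKRD37, an ankyrin-repeat protein, had few reads, with 1.65, 2.59 and 3.73 CPM in knockdown and 2.89, 4.42 and 6.48 CPM in wild-type total RNA. Its footprints were at 0.267, 1.41 and 3.91 CPM in knockdown and 0, 3.71 and 7.98 CPM in wild-type libraries. The treatments overlapped in both assays, and the differences were -0.71 ± 0.090 in total RNA and -1.12 ± 0.25 in footprints (adjusted p = 1.3e-08 and 0.000146). MXI1, which competes with MYC for its partner MAX, was at 61.2, 67.5 and 75.8 CPM in knockdown and 70.4, 85.8 and 103 CPM in wild-type total RNA, and at 4.48, 7.40 and 10.9 CPM in knockdown and 7.25, 11.9 and 17 CPM in wild-type footprints, with overlap in both. Its difference was -0.36 ± 0.031 in total RNA and -0.67 ± 0.089 in footprints (adjusted p = 2.8e-12 and 1.26e-08).

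The collagen prolyl hydroxylase subunit P4HA1 spanned a wide range in wild-type cells and a narrow one in knockdown cells. P4HA1 total RNA was at 91.5, 108 and 128 CPM in knockdown and 84.8, 137 and 227 CPM in wild-type libraries, and its footprints were at 146, 192 and 217 CPM in knockdown and 137, 229 and 373 CPM in wild-type libraries. The knockdown range lay within the wild-type range in both assays, and the differences were -0.36 ± 0.087 in total RNA and -0.24 ± 0.095 in footprints (adjusted p = 0.000519 and 0.023). Without replicate 1 neither passed, at -0.12 in total RNA (adjusted p = 0.208) and 0.0071 in footprints (adjusted p = 0.935). The sister subunit P4HA2 fell by 0.30 ± 0.028 in total RNA and by 0.20 ± 0.030 in footprints. The mitophagy receptor BNIP3L was at 147, 183 and 216 CPM in knockdown and 160.5, 235 and 344 CPM in wild-type total RNA, with overlap, and fell by 0.34 ± 0.068 in total RNA and by 0.35 ± 0.066 in footprints. Its relative BNIP3 fell by 0.45 ± 0.070 in total RNA and by 0.36 ± 0.083 in footprints; the footprint call of BNIP3 was lost without replicate 1 (-0.16). Among the others, the histone demethylase KDM3A fell by 0.48 ± 0.069 in total RNA and by 0.39 ± 0.090 in footprints, the second not past the threshold without replicate 1 (-0.16). The vessel growth factor VEGFA fell by 0.20 ± 0.030 in total RNA and by 0.38 ± 0.051 in footprints. The endoplasmic reticulum oxidase ERO1L fell by 0.10 ± 0.021 in total RNA and had -0.056 ± 0.034 in footprints, not past the threshold unless replicate 2 was left out (-0.11). The vasoactive peptide gene ADM had -0.18 ± 0.091 in total RNA (adjusted p = 0.0633) and too few footprints to be tested.

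CA9, a carbonic anhydrase that is a classical marker of hypoxic tumour cells, had too few reads for a test in either assay. Knockdown libraries held 0, 0.122 and 1.16 CPM of CA9 in total RNA and wild-type libraries 0, 0.358 and 1.73 CPM, at most 7 reads in a knockdown and 26 in a wild-type library. In footprints, 15 of 24 knockdown libraries had no CA9 read, and the highest levels were 0.817 CPM in knockdown and 4.25 CPM in wild-type libraries. HIF1A itself, whose protein is set mainly by oxygen-dependent destruction, differed little in RNA. HIF1A total RNA was at 213, 231 and 255 CPM in knockdown and 224, 242 and 262 CPM in wild-type libraries, with overlap, and fell by 0.072 ± 0.016 (adjusted p = 0.00018; -0.047 and 0.0961 without replicate 1). Its footprints were at 360.2, 402 and 455 CPM in knockdown and 401, 482 and 575 CPM in wild-type libraries and fell by 0.27 ± 0.031 (adjusted p = 2.55e-10), below 0 at all 12 times. HIF1A overlaps antisense transcripts, and whether the counting used strand is not given in the sources used here.

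Along the glycolytic chain, HK1, PFKM, PFKL and PKM rose in knockdown cells in both assays, GPI and PGAM1 in total RNA, and ENO1 in footprints. The hexokinase HK1 rose by 0.26 ± 0.017 in total RNA and 0.38 ± 0.022 in footprints, while its inducible relative HK2 had -0.064 ± 0.081 in total RNA and -0.066 ± 0.066 in footprints, not past the threshold. Its total RNA value was 0.18 without replicate 1 and -0.32 without replicate 2, both past the threshold. GPI, which isomerizes glucose phosphate, rose by 0.22 ± 0.033 in total RNA and had 0.025 ± 0.027 in footprints, where it passed without replicate 1 (0.093). The muscle-type phosphofructokinase PFKM, a rate-limiting enzyme, was at 124, 155 and 169.5 CPM in knockdown and 103, 114 and 127 CPM in wild-type total RNA, and at 205, 237 and 259 CPM in knockdown and 145, 161 and 186 CPM in wild-type footprints. PFKM libraries overlapped by a little in total RNA and not at all in footprints, and it rose by 0.42 ± 0.030 in total RNA and 0.53 ± 0.026 in footprints (adjusted p = 3.04e-14 and 3.34e-21). The liver-type PFKL rose by 0.12 ± 0.021 in total RNA and 0.21 ± 0.031 in footprints, and the platelet-type PFKP had -0.00083 ± 0.020 in total RNA and -0.027 ± 0.029 in footprints. Pyruvate kinase PKM rose by 0.42 ± 0.024 in total RNA and 0.36 ± 0.027 in footprints. PKM and HK1 are given by library because their treatments did not overlap, a choice made after their values were seen. PKM total RNA was at 2476, 2617 and 3063 CPM in knockdown and 1796, 2006 and 2161 CPM in wild-type libraries, and HK1 total RNA at 249.7, 282 and 319.8 CPM in knockdown and 213, 235 and 248 CPM in wild-type libraries.

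The other enzymes gave smaller differences, and those that fell included LDHA, PGK1 and ALDOA. Lactate dehydrogenase LDHA, which makes lactate and is a HIF target, fell by 0.24 ± 0.047 in total RNA and by 0.35 ± 0.039 in footprints. The total RNA call was lost without replicate 1 (-0.050, adjusted p = 0.0624) and the footprint call was kept (-0.22, 1.55e-08). The other lactate dehydrogenase subunit, LDHB, had -0.026 ± 0.026 in total RNA (-0.072 and past the threshold without replicate 2) and -0.027 ± 0.027 in footprints, the footprint value turning to 0.065 (adjusted p = 0.0339) on the authors' own scaling. Aldolase ALDOA fell by 0.085 ± 0.028 in total RNA and by 0.11 ± 0.032 in footprints, and phosphoglycerate kinase PGK1 fell by 0.10 ± 0.038 and by 0.15 ± 0.036. Without replicate 1 neither gene passed in either assay, with 0.014 for ALDOA and 0.014 for PGK1 in total RNA, and -0.0065 for ALDOA and -0.042 for PGK1 in footprints. Triose phosphate isomerase TPI1 fell by 0.064 ± 0.027 in total RNA, a call lost without replicate 1 (-0.0018), and had -0.047 ± 0.028 in footprints, which passed without replicate 1 (-0.084). GAPDH had 0.0030 ± 0.015 in total RNA and -0.032 ± 0.030 in footprints; both passed without replicate 2, at -0.038 and -0.11. Enolase ENO1 had 0.021 ± 0.017 in total RNA and rose by 0.069 ± 0.016 in footprints. Neuronal-type enolase ENO2 had -0.047 ± 0.062 in total RNA and 0.072 ± 0.048 in footprints, and brain-type aldolase ALDOC -0.28 ± 0.15 in total RNA and 0.23 ± 0.25 in footprints, none past the threshold. ENO2 passed in total RNA with either replicate left out, at 0.17 without replicate 1 and -0.27 without replicate 2, and in footprints without replicate 1 (0.17). ALDOC passed without replicate 2, at -0.70 in total RNA and -0.45 in footprints. With replicate 1 left out, no enzyme fell and 8 of 17 rose in total RNA, against 35.8% of all genes lower and 36.9% higher. With replicate 2 left out, 9 fell and 6 rose, against 39.2% and 39.3%. In footprints 7 of 16 rose and 2 fell without replicate 1 (33.1% of all genes each way), and 5 rose and 5 fell without replicate 2 (34.1% and 34.6%). Phosphoglycerate mutase PGAM1 rose by 0.21 ± 0.024 in total RNA, at 117, 128 and 136 CPM in knockdown and 95.4, 109.5 and 125 CPM in wild-type libraries, yet was at most 1.17 CPM in knockdown and 1.07 CPM in wild-type footprints, too few to be tested. PGAM1, GAPDH, TPI1, PGK1, ENO1, LDHA, LDHB and ALDOA have very similar pseudogene copies, and how shared reads were counted is not given, so their levels are uncertain.

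Of the transport and switch genes, the glucose transporter SLC2A3 rose the most of all 37 genes tested in total RNA. SLC2A3 was at 39.9, 50.3 and 61.2 CPM in knockdown and 23.5, 31.7 and 47.4 CPM in wild-type total RNA, and at 14.9, 26.5 and 40.8 CPM in knockdown and 6.22, 12.8 and 17.5 CPM in wild-type footprints. The ranges overlapped in both assays, and it rose by 0.68 ± 0.051 in total RNA (1.60-fold, adjusted p = 2.05e-13) and 1.10 ± 0.070 in footprints (2.14-fold, adjusted p = 1.39e-17). SLC2A3 shares much of its sequence with SLC2A14, which adds the same uncertainty. The other glucose transporter, SLC2A1, was at 114, 154 and 183 CPM in knockdown and 109, 149.6 and 204 CPM in wild-type total RNA and had 0.017 ± 0.052 in total RNA and -0.018 ± 0.066 in footprints. Its total RNA value was 0.19 without replicate 1 and -0.16 without replicate 2, both past the threshold and of opposite sign, as were its footprint values of 0.15 and -0.19. PFKFB3, which makes the allosteric activator of phosphofructokinase, rose by 0.24 ± 0.026 in total RNA and 0.12 ± 0.048 in footprints, the second not past the threshold without replicate 1 (0.075). Its relative PFKFB4 fell by 0.16 ± 0.069 in total RNA (adjusted p = 0.0364), a call lost without replicate 1, without the 2 shallow libraries and without the filter on low counts, and had 0.031 ± 0.099 in footprints. The lactate exporter SLC16A3 had 0.015 ± 0.086 in total RNA and 0.18 ± 0.18 in footprints. PDK1, which shuts pyruvate out of the mitochondrial oxidation route, had -0.12 ± 0.10 in total RNA and -0.11 ± 0.15 in footprints, and its total RNA value was 0.21 without replicate 1 and -0.45 without replicate 2, both past the threshold. In footprints it was 0.33 without replicate 1 and -0.55 without replicate 2, again both past the threshold.

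Translational efficiency, the footprint level relative to the total RNA level, differed between the treatments for 9 of 35 genes (5 higher, 4 lower), against 31.3% of all genes (14.2% higher, 17.1% lower). SLC2A3 rose by 0.42 ± 0.087 (adjusted p = 0.00013), EGLN3 by 0.35 ± 0.14 (0.0432), HK1 by 0.12 ± 0.026 (0.000324) and PFKM by 0.11 ± 0.039 (0.0236). MXI1 fell by 0.31 ± 0.091 (adjusted p = 0.00758). HIF1A fell by 0.20 ± 0.036 (1.35e-05), GPI fell by 0.19 ± 0.043 (0.000363) and VEGFA fell by 0.18 ± 0.057 (0.0138). P4HA2, the fifth to rise, had 0.10 ± 0.041. The calls of SLC2A3, HIF1A and GPI held with either replicate left out. That of EGLN3 was lost without replicate 1 (0.40, adjusted p = 0.349), without replicate 2 (0.31, adjusted p = 0.363), without the filter, at a pseudocount of 1 and without the 2 shallow libraries. P4HA2 was lost without replicate 1 (0.094), without replicate 2 (0.12), without the filter and without the shallow libraries. HK1 (0.055) and PFKM (0.042) were lost without replicate 1, PFKM also without the shallow libraries (0.097), and MXI1 (-0.24) and VEGFA (-0.14) without replicate 2. On the authors' own scaling the split over all genes was 3714 higher and 907 lower, in place of 1582 and 1905, and the calls of MXI1, GPI and VEGFA were lost. With the times of each replicate averaged first, 2 of the 35 genes passed (SLC2A3 and EGLN3), against 7.84% of all genes.

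The second comparison asks how the genes changed through the day, as the last 3 times (CT18 to CT22) minus the first 3 (CT00 to CT04), with 6 libraries at each end. More HIF targets rose in wild-type cells than in knockdown cells, and more fell in knockdown cells. In knockdown total RNA, 2 of 13 HIF targets rose and 5 fell, and in wild-type total RNA 7 rose and none fell. Among glycolytic enzymes 1 rose and 5 fell in knockdown cells, and 3 rose and 2 fell in wild-type cells. Of all 37 genes, 6 rose and 10 fell in knockdown cells, against 16.1% and 17.4% of all genes (33.4% called). In wild-type cells 13 rose and 3 fell, against 16.4% and 20.3% (36.7% called); with the replicate block 18 passed (42.1% of all genes). The median HIF target in knockdown total RNA, relative to each gene's mean over the 48 libraries, was at -0.27, -0.24 and -0.21 late and -0.26, -0.17 and -0.049 early (lowest, median and highest of 6 libraries). In wild-type total RNA it was at 0.21, 0.32 and 0.43 late and -0.065, -0.0012 and 0.21 early. The late and early wild-type libraries overlapped by little, and late wild-type libraries lay above all late knockdown libraries. The wild-type replicates differed: replicate 1 was already at 0.42 at CT08 and reached 0.43 at CT20, while replicate 2 reached at most 0.26, at CT22. The median glycolytic enzyme stayed between -0.14 and 0.10 in all of these total RNA libraries.

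**Figure D3:**
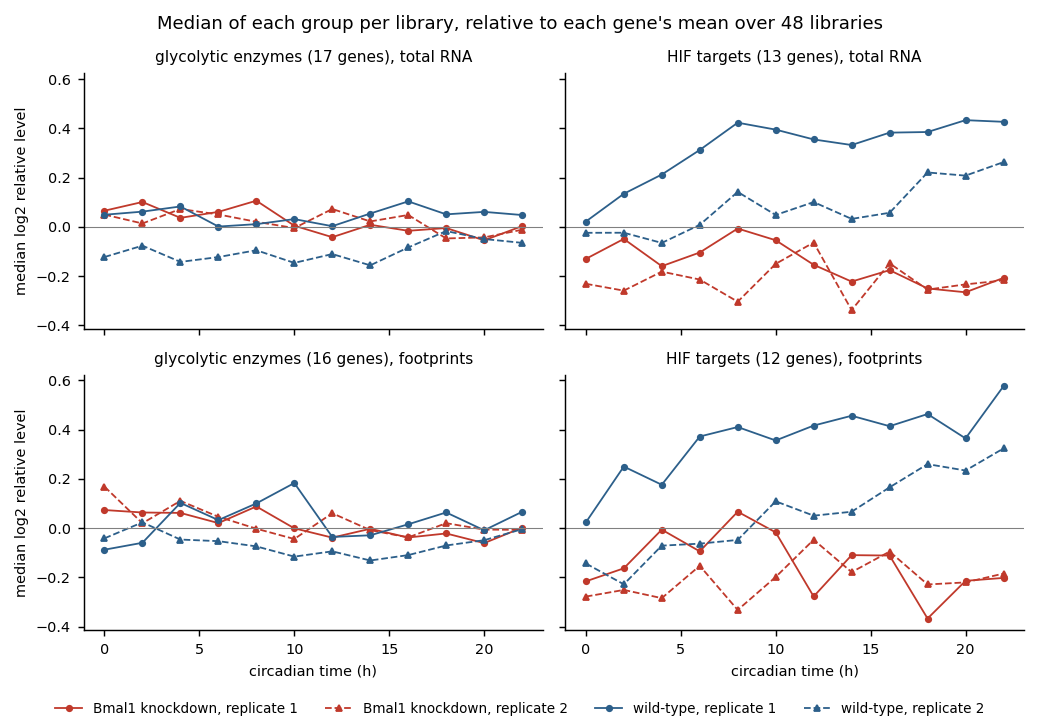
Median log2 level of the HIF targets and of the glycolytic enzymes in each library, relative to each gene's mean over the 48 libraries of the assay (vertical axis), against circadian time in hours; Bmal1 knockdown in red and wild-type in blue, replicate 1 solid and replicate 2 dashed. In wild-type total RNA the HIF target median of replicate 1 is at 0.42 by CT08 and at most 0.43, and that of replicate 2 is at most 0.26, at CT22, while in knockdown total RNA it lies at -0.21 or below from CT18 to CT22.

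ALDOC, an aldolase of brain and other tissues that HIF induces, gave the widest contrast. In knockdown total RNA, ALDOC was at 1.76, 2.13 and 2.54 CPM late and 2.35, 2.46 and 3.64 CPM early; in wild-type total RNA it was at 3.51, 4.65 and 9.54 CPM late and 1.28, 2.20 and 3.45 CPM early. Late and early libraries did not overlap in wild-type cells. The change was -0.32 ± 0.26 in knockdown cells (adjusted p = 0.357; -0.52 and 0.0457 without replicate 2) and a rise of 1.22 ± 0.26 in wild-type cells (0.000177), a difference of -1.54 ± 0.36 (adjusted p = 0.00231). Its footprints were at 3.11, 5.11 and 6.09 CPM late and 2.94, 4.65 and 7.19 CPM early in knockdown cells, and at 7.05, 7.85 and 10.0 CPM late and 0, 2.19 and 5.19 CPM early in wild-type cells. The footprint difference between the treatments was -2.42 ± 0.63 (adjusted p = 0.0123); it was -3.68 without replicate 1 and -1.20 without replicate 2, the second no longer past the threshold (adjusted p = 0.169). ALDOC had 8 to 31 footprint reads in a knockdown library and 0 to 56 in a wild-type library.

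P4HA1 followed the same course. P4HA1 total RNA was at 96, 107 and 128 CPM late and 91.5, 101 and 113 CPM early in knockdown cells, and at 142, 187 and 227 CPM late and 84.8, 104 and 133 CPM early in wild-type cells. The change was 0.081 ± 0.15 in knockdown cells, not past the threshold, and a rise of 0.80 ± 0.15 in wild-type cells (adjusted p = 3.93e-05); the difference was -0.72 ± 0.21 (adjusted p = 0.0147), and -0.65 and -0.83 without replicate 1 and 2. EGLN3 instead fell in knockdown cells. It was at 0.774, 1.82 and 2.22 CPM late and 2.41, 3.28 and 3.59 CPM early in knockdown total RNA, without overlap, and at 4.46, 4.98 and 6.14 CPM late and 4.10, 4.55 and 6.02 CPM early in wild-type total RNA. EGLN3 fell by 0.81 ± 0.15 in knockdown cells (adjusted p = 2.51e-05) and had 0.12 ± 0.15 in wild-type cells, a difference of -0.92 ± 0.21 (adjusted p = 0.00154). One of the shallow knockdown libraries, at CT18, enters these late values, and without the 2 shallow libraries the difference was -0.75.

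**Figure D4:**
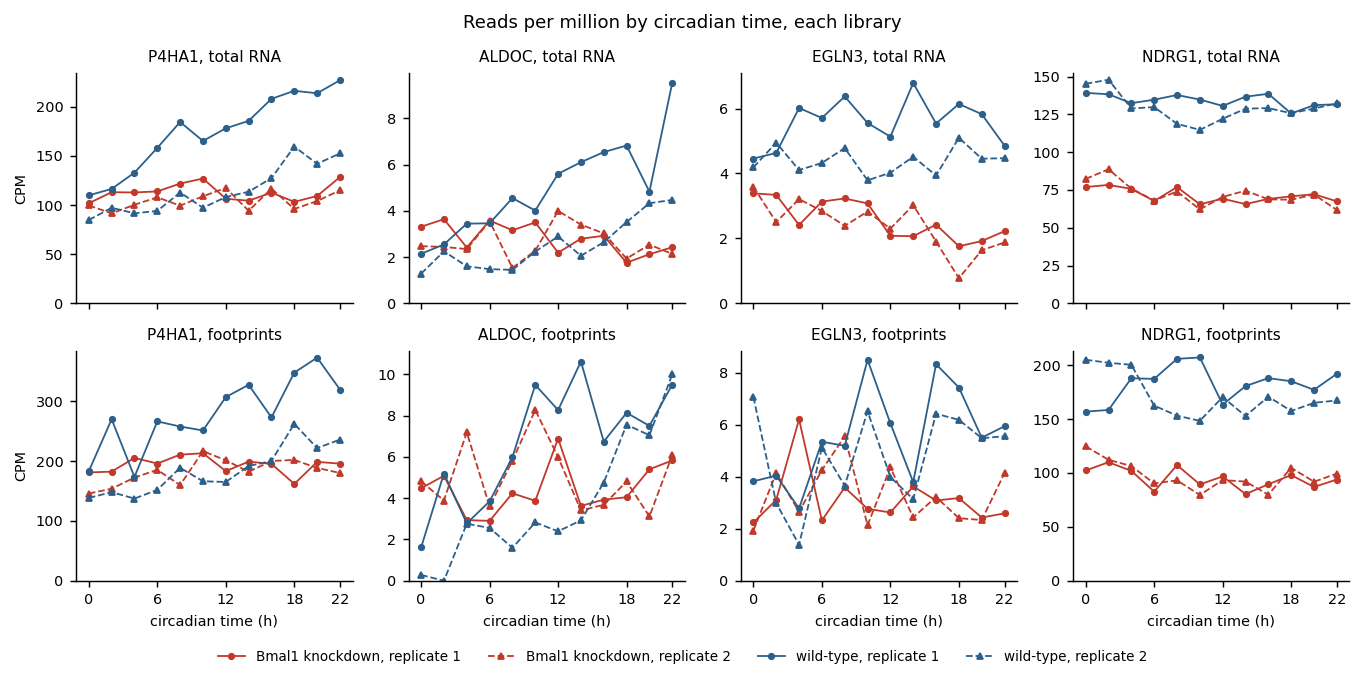
Levels (CPM, vertical axis) of P4HA1, ALDOC, EGLN3 and NDRG1 against circadian time in hours, total RNA above and footprints below; Bmal1 knockdown in red and wild-type in blue, replicate 1 solid and replicate 2 dashed. P4HA1 and ALDOC rise late in the day in wild-type cells, EGLN3 falls in knockdown total RNA, and the NDRG1 lines of the treatments stay apart at all 12 times.

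The change over the day differed between the treatments for 9 of 37 genes in total RNA, all of them more negative in knockdown cells, against 16.2% of all genes (7.96% higher, 8.19% lower). Beside ALDOC, P4HA1 and EGLN3 these were EGLN1, with -0.13 in knockdown and 0.23 in wild-type cells, ERO1L with -0.30 and 0.031, and MXI1 with 0.029 and 0.27. The enzymes were PFKL with 0.023 in knockdown and 0.22 in wild-type cells, LDHB with -0.14 and 0.062, and HK1 with -0.098 and 0.054. All 13 HIF target differences were below 0, and 5 passed the threshold. Without replicate 1 the calls of HK1 (-0.19), MXI1 (-0.24) and PFKL (-0.27) were lost and 8 genes passed. Without replicate 2 those of HK1 (-0.15), LDHB (-0.084) and PFKL (-0.17) were lost and 16 passed. With the replicate block, which pairs wild-type libraries and in knockdown libraries rests on a shared number alone, 18 passed, 17 of them more negative in knockdown cells, against 23.5% of all genes. In footprints, 3 of 35 genes differed, all more negative in knockdown cells (ALDOC, EGLN1 and ENO2), against 6.94% of all genes (3.14% higher and 3.8% lower). EGLN1 had -0.57 ± 0.18 (adjusted p = 0.0396) and ENO2 -0.44 ± 0.13 (0.0229). EGLN1 did not pass without replicate 1 (-0.51), without replicate 2 (-0.67) or without the filter on low counts. ENO2 did not pass without replicate 1 (-0.41, adjusted p = 0.132).

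For 5 genes the change over the day in total RNA passed in the same direction in both treatments. SLC2A3 total RNA rose by 0.43 ± 0.090 in knockdown cells and 0.52 ± 0.090 in wild-type cells over the day, and its footprints by 0.79 ± 0.14 in knockdown and 0.74 ± 0.14 in wild-type cells. SLC2A3 footprints were at 27.2, 34.2 and 40.8 CPM late and 14.9, 21.4 and 22.5 CPM early in knockdown cells, without overlap, and at 12.7, 15.5 and 17.5 CPM late and 6.22, 9.42 and 13.6 CPM early in wild-type cells, with overlap. SLC2A1 total RNA was at 151, 168 and 183 CPM late and 114, 137 and 148 CPM early in knockdown cells, and at 158, 182 and 204 CPM late and 109, 125 and 149 CPM early in wild-type cells. It rose by 0.33 ± 0.094 in knockdown and 0.53 ± 0.094 in wild-type cells, P4HA2 by 0.20 ± 0.056 in knockdown and 0.32 ± 0.056 in wild-type cells, and VEGFA by 0.16 ± 0.055 in knockdown and 0.17 ± 0.055 in wild-type cells. PFKP fell by 0.23 ± 0.041 in knockdown cells and by 0.24 ± 0.041 in wild-type cells. In both treatments the total RNA calls of SLC2A1 and SLC2A3 held with either replicate left out. VEGFA was lost without replicate 2, at 0.10 in knockdown and 0.023 in wild-type cells, and P4HA2 (0.19) and PFKP (-0.14) were lost in knockdown cells without replicate 1. Passing in both does not show equal change: the difference between the treatments for these 5 genes lay between -0.20 and 0.0075 with SE of 0.058 to 0.13, and that of SLC2A1 (-0.20) passed with the replicate block (adjusted p = 0.0447).

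Genes that passed in total RNA in 1 treatment alone included the mitophagy receptors and the lactate exporter. BNIP3L total RNA was at 181, 195 and 216 CPM late and 147, 162 and 177 CPM early in knockdown cells, and at 232, 293 and 344 CPM late and 160.5, 184 and 238 CPM early in wild-type cells. Its change was 0.28 ± 0.12 in knockdown cells (adjusted p = 0.0608; past the threshold without replicate 1, 0.32, without replicate 2, 0.22, and with the block) and a rise of 0.60 ± 0.12 in wild-type cells, and the difference, -0.33 ± 0.16, did not pass. BNIP3 fell by 0.38 ± 0.12 in knockdown cells and had -0.014 ± 0.12 in wild-type cells. SLC16A3 was at 1.51, 1.95 and 2.02 CPM late and 0.680, 1.23 and 1.77 CPM early in knockdown total RNA, and at 1.38, 1.53 and 1.58 CPM late and 1.01, 1.41 and 1.88 CPM early in wild-type total RNA. SLC16A3 rose by 0.55 ± 0.17 in knockdown cells (adjusted p = 0.00987; 0.25 and lost without replicate 2) and had 0.093 ± 0.17 in wild-type cells; the difference, 0.46 ± 0.24, did not pass. ENO2 fell by 0.38 ± 0.11 in knockdown total RNA and had -0.065 ± 0.11 in wild-type total RNA. NDRG1 fell by 0.21 ± 0.048 in knockdown cells and had -0.10 ± 0.048 in wild-type cells. PDK1 and ANKRD37 rose in wild-type total RNA, by 0.48 ± 0.17 and 0.42 ± 0.15, and had -0.12 ± 0.17 and 0.026 ± 0.15 in knockdown total RNA. The differences between the treatments did not pass for BNIP3 (-0.37), ENO2 (-0.32), NDRG1 (-0.11), PDK1 (-0.60) or ANKRD37 (-0.40). With the replicate block those of BNIP3 (adjusted p = 0.00336), BNIP3L (0.00201), ENO2 (0.00284) and PDK1 (0.000171) passed. Without replicate 2 the same 4 passed, at -0.36 for BNIP3, -0.42 for BNIP3L, -0.38 for ENO2 and -0.75 for PDK1, and that of PDK1 passed without the 2 shallow libraries (-0.68). The wild-type rise of ANKRD37 did not pass without replicate 2 (0.18), where PDK1 fell in knockdown cells (-0.28). Smaller changes past the threshold were rises of 0.12 for PKM in knockdown cells and 0.090 for GAPDH in wild-type cells. PFKM fell by 0.15 ± 0.055 in knockdown cells, and PFKFB3 fell by 0.16 ± 0.050 and ENO1 fell by 0.081 ± 0.032 in wild-type cells. Of these, PKM (0.086) and ENO1 (0.012) were lost without replicate 1, and GAPDH (0.061), PFKM (-0.088) and PFKFB3 (-0.12) without replicate 2.

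Footprints showed the same order of counts between the treatments. In knockdown footprints 3 of 35 genes rose and 5 fell, against 9.54% and 10.3% of all genes (19.9% called), and in wild-type footprints 10 rose and 3 fell, against 13% and 13.7% (26.7% called). Of 12 HIF targets, 2 rose and 2 fell in knockdown footprints, and 6 rose and none fell in wild-type footprints. SLC2A3 and P4HA2 rose and PFKP and ENO1 fell in the footprints of both treatments. ENO1 footprints fell by 0.092 ± 0.029 in knockdown and by 0.11 ± 0.029 in wild-type cells. The knockdown call of ENO1 was lost with either replicate left out, and the wild-type call without replicate 2. Wild-type rises beyond those given were 0.81 for EGLN3, 0.76 for P4HA1, 0.71 for SLC2A1 and 0.52 for BNIP3L. EGLN3 footprints did not pass without replicate 1 (0.83) or without replicate 2 (0.81). The wild-type rise of ANKRD37 footprints, 1.21 ± 0.46, rested on replicate 2: without it the value was -0.085. ENO2 footprints were at 75.1, 84.8 and 97.3 CPM late and 109.6, 123 and 140.1 CPM early in knockdown cells, and at 89.9, 101 and 112 CPM late and 83.6, 110.4 and 125 CPM early in wild-type cells. They fell by 0.53 ± 0.091 in knockdown cells, and had -0.086 ± 0.091 in wild-type cells, and BNIP3 footprints fell by 0.48 ± 0.15 in knockdown cells, a call lost without replicate 1 (-0.36). Efficiency over the day passed for LDHB in wild-type cells, -0.28 ± 0.069, among 35 genes (0.906% of all genes, 0.727% lower). With limma it passed for 0 of the 35 in knockdown cells (0.00897% of all genes), of which 2, EGLN3 and SLC2A3, had an unadjusted p under 0.05; the LDHB call was lost without replicate 1 (adjusted p = 0.179). On the authors' own scaling the split of efficiency calls over all genes in wild-type cells was 9 higher and 117 lower, in place of 20 and 81, and in knockdown cells 1 higher and 1 lower, in place of 1 and 0.

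**Figure D5:**
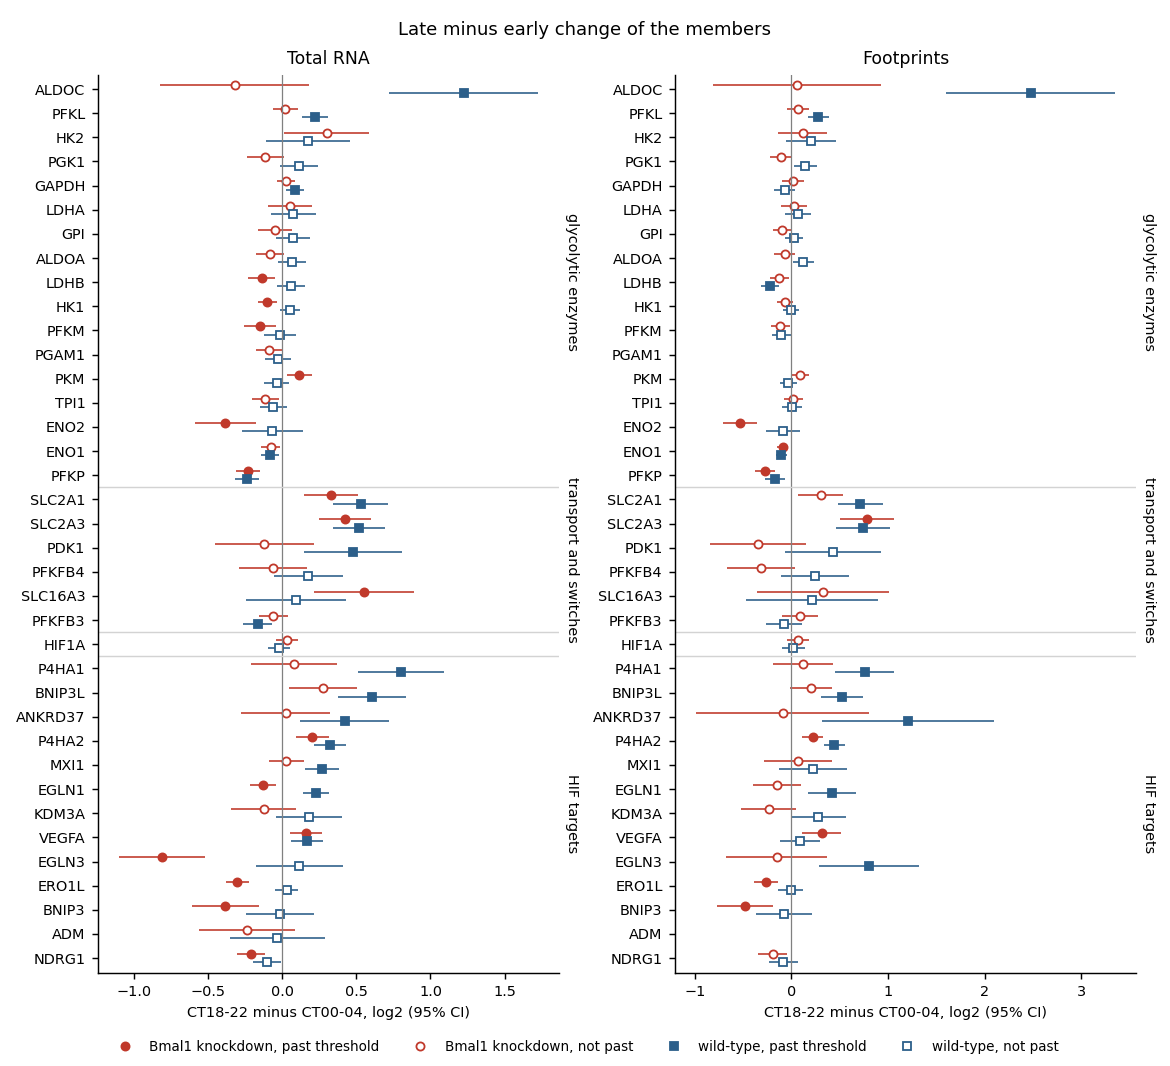
Change over the day (CT18 to CT22 minus CT00 to CT04, log2, with 95% intervals; horizontal axis) for each gene by role, total RNA on the left and footprints on the right; knockdown as red circles above wild-type as blue squares, filled where the adjusted p is under 0.05. HIF targets of wild-type cells lie mostly right of 0 and right of the knockdown values, and ALDOC shows the widest contrast among the enzymes.

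A 24 h wave was fitted to each treatment and assay to ask whether these genes cycle. In knockdown total RNA 18 of 37 genes passed, against 32.9% of all genes, and in wild-type total RNA 5 of 37, against 22.3%. In knockdown footprints 13 of 35 passed (17.4% of all genes) and in wild-type footprints 4 of 35 (6.89%). The largest log2 amplitudes past the threshold in knockdown total RNA were 0.39 for EGLN3 with a peak at CT5.60, 0.34 for SLC16A3 (CT15.1), 0.22 for HK2 (CT19.3) and 0.22 for BNIP3 (CT4.77). In wild-type total RNA they were 0.26 for SLC2A1 (CT17.1), 0.23 for SLC2A3, 0.14 for P4HA2 and 0.11 for PFKP. Among footprints, SLC2A3 led in both treatments, at 0.35 in knockdown and 0.34 in wild-type cells, followed by ENO2 (0.28), BNIP3 (0.27) and HK2 (0.22) in knockdown cells, and by P4HA2 (0.16), PFKP (0.14) and ENO1 (0.074) in wild-type cells. A single day cannot separate a wave from a steady drift: with a straight drift in the limma model, 1 gene passed in knockdown and 0 in wild-type total RNA (4.47% and 0.182% of all genes), and 1 in knockdown and 0 in wild-type footprints (2.29% and 0.0626%). At an unadjusted p under 0.05, 1 gene did so in wild-type total RNA (NDRG1) and 2 in wild-type footprints (HIF1A and PFKP). Replicate numbers paired the wild-type total RNA libraries, where every pair of times correlated above 0.1, and with the replicate as a block 14 of 37 genes passed there, against 37.8% of all genes. The counts also moved with the replicate left out: 2 genes passed in knockdown and 13 in wild-type total RNA without replicate 1, and 11 in knockdown and 4 in wild-type total RNA without replicate 2. In footprints 3 passed in knockdown and 5 in wild-type cells without replicate 1, and 5 in knockdown and 0 in wild-type cells without replicate 2, where 9 had an unadjusted p under 0.05 with limma. Of the genes named for knockdown total RNA, EGLN3 and BNIP3 did not pass without replicate 1, and EGLN3, SLC16A3 and HK2 did not pass without replicate 2.

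Further genes of both pathways, listed by function, were counted the same way for the knockdown effect. Of 25 further glycolysis genes in the files, 17 were tested in each assay; 4 rose and 11 fell in total RNA (median -0.26), and 3 rose and 9 fell in footprints (median -0.17). Of 31 further HIF pathway genes, 26 were tested; 12 rose and 11 fell in total RNA (median -0.012), and 12 rose and 11 fell in footprints (median 0.064). Over all genes 41.7% rose and 40% fell in total RNA, and 37.8% rose and 37.6% fell in footprints, so the shares of the HIF pathway list lay near those of all genes. PDK4, another kinase that blocks pyruvate oxidation, was at 0.431, 1.17 and 3.10 CPM in knockdown and 1.28, 3.34 and 5.90 CPM in wild-type total RNA, a difference of -1.26 ± 0.12. DDIT4, a stress-induced inhibitor of mTOR signalling, was at 18.9, 44.5 and 73.6 CPM in knockdown and 35.8, 105 and 149 CPM in wild-type total RNA, a difference of -1.19 ± 0.10. CITED2, which competes with HIF for a coactivator, had -0.75 ± 0.050 in total RNA and -1.05 ± 0.049 in footprints. In the other direction, BHLHE40, a clock-linked repressor that HIF can induce and that BMAL1 can activate, was at 78.9, 109 and 155 CPM in knockdown and 33.0, 49.5 and 61.8 CPM in wild-type total RNA, without overlap, a rise of 1.17 ± 0.051.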

How the data were processed

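Total RNA and ribosome footprints of 96 U2-OS libraries were deposited by the authors as 8 tables of a per-gene signal, read counts divided by a size factor per library; STAR 2.3.0e, HTSeq 0.5.4p1, DESeq2 and GRCh37 (hg19) are named per the submitters' processing notes, and total RNA was made with a stranded kit, per the labels' protocols. Dividing each deposited signal by its smallest step gave whole reads for 100% of values (tolerance 0.001). Reads were scaled by TMM (edgeR 4.0.16, R 4.3.3), genes passed edgeR's filterByExpr (min.count 10), and log2(CPM + 0.25) was tested with limma 3.58.1 (trended, robust variance; Benjamini-Hochberg adjusted p under 0.05) on all genes, with treatment and time as groups. A log2 difference on this scale understates the change of low genes. Translational efficiency is the interaction of assay with the contrast. Waves are a 24 h sine and cosine.

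The members and lists were chosen with earlier results of these data known. Every gene present in all tables is named with its knockdown effect; library values are given where an effect past the threshold reached 0.5 on the log2 scale in the knockdown or the late minus early comparisons, and for HIF1A; waves name the 4 largest amplitudes, efficiency the 4 largest each way, and further pathway genes those reaching 1, of which one is not reported here. The labels do not say whether replicates are separate cultures, so p-values may measure technical spread; between replicates, chi-square per degree of freedom was 1.38 to 10.4 over 48 pairs, so no pair agreed within sampling noise. Replicate numbers met the rule for pairs (every correlation over 0.1) in wild-type total RNA only: deviations from the group means correlated at 0.321 to 0.565 over 66 pairs of times. Elsewhere the lowest correlation was at or below -0.020. The scaling, filter and limma fits were tested on simulated data, and edgeR's quasi-likelihood test was not. The simulated libraries were drawn independently, without the correlated replicate deviations of wild-type total RNA. They therefore cannot show how the fits behave under such deviations. Alternatives were 2 other scalings, a pseudocount of 1, no filter, a replicate block, leaving out each replicate, averaging the times of each replicate, edgeR's quasi-likelihood test on the recovered reads, and a linear drift; leaving out the 2 shallow libraries was added after seeing the data. Levels per coding length were not used here, so levels are not compared between genes.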

Additional observations from a re-analysis of the deposited data

Results flagged for a closer look

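The change over the day (CT18 to CT22 minus CT00 to CT04) was compared between knockdown and wild-type cells by a test of the difference. It differed for 9 of 37 genes in total RNA, against 16.2% of all genes, and for 3 of 35 in footprints, against 6.94%. In total RNA the knockdown minus wild-type difference was -1.54 on the log2 scale for ALDOC, -0.92 for EGLN3, -0.72 for P4HA1, -0.36 for EGLN1, -0.33 for ERO1L, -0.24 for MXI1, -0.20 for PFKL, -0.20 for LDHB and -0.15 for HK1. In footprints it was -2.42 for ALDOC, -0.57 for EGLN1 and -0.44 for ENO2. ALDOC and EGLN1 were past the threshold in both assays. The footprint call of EGLN1 was lost with either replicate left out, with edgeR's quasi-likelihood test and with no filter. The footprint call of ALDOC was lost without replicate 2, and that of ENO2 without replicate 1.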

How the results depend on the processing

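Of 1145 recomputed values of 125 named gene results, 1001 stayed on their side of the threshold, and 110 lost and 19 gained significance. Another 15 changed sign with the main or the recomputed value past the threshold. A change of sign where neither was past it was not counted as a change. By this count median-ratio scaling changed none of its 125. Where a value changed, the cause was not tested. By the same count, leaving out a replicate turned the following knockdown effects (range over the 2 replicates). In total RNA they were -0.19 to 0.014 for ALDOA, -0.27 to 0.17 for ENO2, -0.038 to 0.037 for GAPDH and -0.32 to 0.18 for HK2. Also in total RNA were -0.45 to 0.21 for PDK1, -0.33 to 0.0036 for PFKFB4, -0.22 to 0.014 for PGK1 and -0.16 to 0.19 for SLC2A1. In footprints they were -0.45 to 0.91 for ALDOC, -0.50 to 0.0071 for P4HA1, -0.55 to 0.33 for PDK1 and -0.19 to 0.15 for SLC2A1. ANKRD37 footprints over the day in wild-type cells gave -0.085 without replicate 2 and did not pass the filter without replicate 1. On the authors' own scaling, the knockdown effect in footprints became 0.065 for LDHB and 0.066 for PFKP. With the times of each replicate averaged (2 against 2), 16 of these genes passed for the knockdown effect in total RNA, and for efficiency 2 of them and 874 of all genes.

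Outside wild-type total RNA the rule for pairs (every correlation over 0.1) was not met. Deviations of libraries with one replicate number had median correlations of 0.031 in knockdown total RNA (lowest -0.126), 0.016 in knockdown footprints (-0.183), 0.23 in wild-type footprints (-0.052) and 0.27 between footprints and total RNA (-0.020). With the replicate block, 14 genes passed for efficiency, 13 for the change over the day in knockdown footprints, 18 and 12 for its difference between treatments in total RNA and footprints, and 0 for efficiency over the day in wild-type cells with limma (6 at an unadjusted p under 0.05). For waves with the block, 14 of these genes and 4990 of all passed in wild-type total RNA, and 7 and 1362 in wild-type footprints; the block moved no other count of these genes by over 1.5 times. For efficiency over the day in knockdown cells, 2 of all genes passed on the authors' scaling, 2 with no filter and 7 with the block. With a linear drift in the wave model, 590 of all genes and 1 of these passed in knockdown total RNA, 24 and 0 in wild-type total RNA, 256 and 1 in knockdown footprints, and 7 and 0 in wild-type footprints (limma; 1 and 2 of these genes had an unadjusted p under 0.05 where none passed).

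Leaving out a replicate leaves 1 library per treatment, assay and time, so the knockdown effect and efficiency were then fitted with time and treatment as additive terms. The numbers of genes passing follow, first among all genes and then among those described here. For efficiency they were 1885 to 2528 and 7 each time. For the change over the day they were 3049 to 3444 and 15 to 20 in knockdown total RNA, 2516 to 4867 and 17 each time in wild-type total RNA, 1005 to 1936 and 6 to 7 in knockdown footprints, and 1350 to 2233 and 11 to 12 in wild-type footprints. Its difference between the treatments gave 949 to 2354 and 8 to 16 in total RNA, and 349 to 399 and 4 to 6 in footprints. Efficiency over the day gave 0 to 2 of all genes in knockdown cells, and 65 to 158 and 0 to 1 in wild-type cells. For waves they were 1164 to 1956 and 2 to 11 in knockdown total RNA, 1576 to 2691 and 4 to 13 in wild-type total RNA, 442 to 804 and 3 to 5 in knockdown footprints, and 139 to 498 and 0 to 5 in wild-type footprints. Where 0 of these genes passed with limma, 5 (efficiency, wild-type cells, without replicate 1) and 9 (wave, wild-type footprints, without replicate 2) had an unadjusted p under 0.05. Depth limits footprints of ALDOC, EGLN3, ANKRD37 and SLC16A3, with medians of 5.5 to 21.5 reads per library, and those of CA9, ADM and PGAM1, which were too few to test.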
